A study of Mus musculus with 8 samples.

Results

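Alveolar macrophages that had been grown in culture and then placed in the lungs of other mice (texAM) were compared with the resident alveolar macrophages of the recipient strain (HostAM) across all genes of one bulk RNA-seq count table. The comparison used 4 of the 8 libraries, 2 per group, and 14537 of the 37310 genes in the table had enough counts to be tested. TexAM came from C57BL/6 donors, were expanded for 2 months, and were given into the trachea of CD45.1 (C57Bl/6-Ly5.1) recipients aged 2 months. Donor mice and Ly5.1 mice were 8 weeks old when used, per the labels, and the age of the HostAM mice at sorting is not given there. After 4 months texAM were sorted from whole lung as live single cells positive for SiglecF, CD11c and CD45.2. HostAM were sorted from Ly5.1 lungs through the same gate with CD45.1 in place of CD45.2, and the labels do not say whether those mice had received donor cells. All mice were C57BL/6 or its Ly5.1 congenic line. TexAM and HostAM therefore differ in culture, transplantation, the congenic segment and the antibody used for sorting. They may also differ in the age of the lung at sorting. These differences cannot be told apart in this contrast. The other groups served as reference: tAM, which were C57BL/6 alveolar macrophages transplanted without culture and recovered through the CD45.2 gate after 4 months, and exAM, which were the cultures themselves, unsorted. Each library was a pool of 3 mice or cultures. No sample was labelled as a batch.

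Alveolar macrophages live on the airspace surface, where they clear surfactant lipid, inhaled particles and dying cells. Their identity depends on GM-CSF and TGF-beta signals that maintain the nuclear receptor Pparg, and when they are placed in culture many of these programmes shift. Lymphocytes and airway epithelium are their neighbours in the lung, and markers of both were kept apart from macrophage genes here. The CD45.1 and CD45.2 forms are alleles of Ptprc on chromosome 1, and a congenic line carries, along with the selected allele, a stretch of flanking chromosome from the strain it was taken from.

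The depth was similar in the libraries compared. TexAM libraries held 9154128 and 8382620 counts and HostAM libraries 8898362 and 8513822, while the tAM libraries held 8302130 and 7733568 and the exAM libraries 6546272 and 7110439. In a principal component analysis of the 6 lung libraries the first component took 30.8% of the variance and ran from texAM at -41.1 and -34.4, through tAM at -2.2 and -8.3, to HostAM at 66 and 20. The HostAM libraries lay further from each other on this component than the texAM libraries did. Leaving out HostAM 2 raised the number of genes called from 48 to 90, and leaving out HostAM 1 lowered it to 15.

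Of the 14537 genes tested, 48 differed between texAM and HostAM at an adjusted p under 0.05 in edgeR's quasi-likelihood test with Benjamini-Hochberg adjustment, here termed called. That is 0.33% of the genes, with 36 higher in texAM (0.248%) and 12 lower (0.0825%). The libraries of the groups did not overlap for any of the 48. Non-overlap alone was common, at 42.8% of all tested genes, and 1914 genes (13.2%) had an unadjusted p under 0.05. The median log2 fold change over all genes was 0. The call number rested on the spread in both groups: it was 1 without texAM 1 and 8 without texAM 2.

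The 48 genes fell into sets with different levels in the cultured cells. Of the 36 higher genes, 8 were on the list of lymphocyte markers and 8 others are known lymphocyte genes that were not on it. Among all 48, 5 (1 higher, 4 lower) are termed strain-linked here by position or list only. Of these 5, 3 lay within 10 Mb of Ptprc and 2 were listed as varying between mouse strains. Whether strain set their levels was not tested. A further 2, both lower, are known from airway epithelium and are termed epithelial here for that reason only. The cells their counts came from were not tested. The remaining 25 genes, 19 higher and 6 lower, were given no such role. The sets outside the lists were assigned after the values were seen. By the lists and the Ptprc window alone, 35 called genes (27 higher, 8 lower) stayed on the macrophage side.

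**Figure D1:**
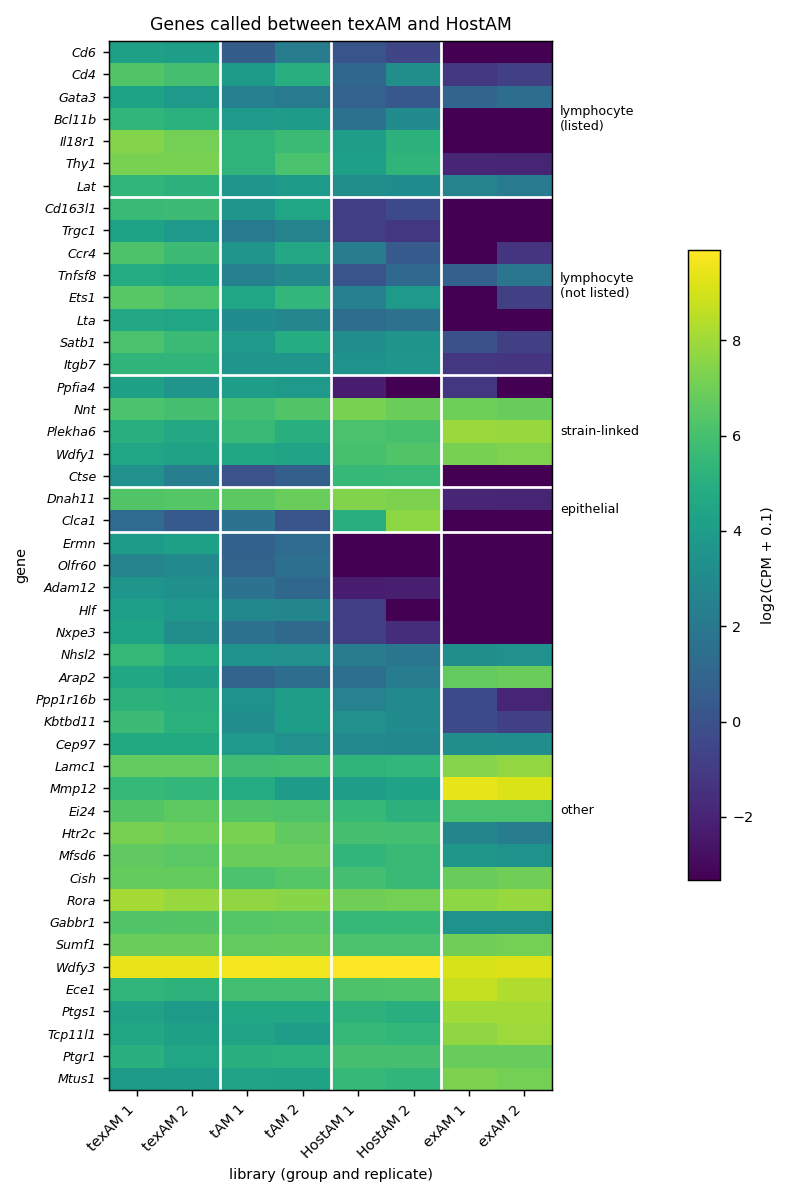
Each row is 1 of 47 of the 48 genes called between texAM and HostAM, each column 1 of the 8 libraries, and colour is log2(CPM + 0.1), where CPM is the count scaled by the effective library size. White lines part the groups and the sets, and most lymphocyte rows are dark in exAM, with Il18r1 at 175 and 138 CPM in texAM and 0 in exAM.

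The exAM libraries are in neither group compared, although they share the model's filter, scaling and spread, and their levels show which called genes were counted in the cultures. Of the 48 called genes, 14 had 0 counts in both exAM libraries, 10 were counted but stayed under 1 CPM in at least 1 of them, and 24 had at least 1 CPM in both. Genes under 1 CPM in an exAM library made up 50% of the called genes against 17.9% of all tested genes. Of the 25 other genes, 12 of the higher and all 6 of the lower had at least 1 CPM in both exAM libraries, and 7 of the higher did not.

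Macrophage identity genes differed little between transplanted and host cells. Of the 40 tested genes of alveolar macrophage identity none was called by edgeR, against 0.33% of all tested genes. The median log2 fold change of the 40 was 0. An unadjusted p under 0.05 was seen for 2 of them, and DESeq2's Wald test called 1. The 95% confidence interval of the fold change lay within 2-fold in either direction for 37 of the 40 (92.5%). That share was 53.1% for all tested genes. Intervals are narrower for genes with more counts, and the list was not matched to other genes by count level. Siglecf, the sialic acid lectin used in the sort, was at 279 and 321 CPM in texAM and 293 and 306 CPM in HostAM. Its log2 fold change was 0.00, with a 95% interval from -0.37 to 0.38. Itgax, which encodes CD11c, was at 617 and 658 CPM in texAM and 630 and 685 CPM in HostAM. The HostAM libraries lay within the range of the texAM libraries for Siglecf, and the libraries overlapped for Itgax. Both groups were sorted on SiglecF and CD11c, so similar levels of Siglecf and Itgax were partly set by the gate.

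Pparg, the nuclear receptor of alveolar macrophage identity, stood at 162 and 200 CPM in texAM and 227 and 193 CPM in HostAM. Marco, a scavenger receptor for particles, stood at 196 and 211 CPM against 245 and 210. The groups overlapped for Pparg, and for Marco the texAM 2 library lay between the HostAM libraries. Car4, a surface carbonic anhydrase, was at 239 and 268 CPM in texAM and 240 and 229 CPM in HostAM. Chil3, a chitinase-like secreted protein, was at 231 and 250 CPM against 240 and 248. Fabp4, a fatty acid carrier, was at 78.2 and 74.6 CPM against 79.1 and 73.8. None of these 5 genes differed beyond the spread between libraries (edgeR adjusted p from 0.501 for Pparg to 1 for Fabp4).

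Epcam, an adhesion molecule of epithelium that alveolar macrophages also express, had the largest difference of the identity list. It stood at 146 and 151 CPM in texAM and 98.4 and 105 CPM in HostAM, without overlap, yet it was not called (log2 fold change 0.55, SE 0.13, edgeR adjusted p = 0.112). In tAM it was at 166 and 181 CPM and in exAM at 0. The texAM libraries of Epcam lay between those of HostAM and tAM, and the gene was not counted in the culture. Cidec, a lipid droplet protein, was at 196 and 225 CPM in texAM and 274 and 237 CPM in HostAM, against 4.97 and 4.17 CPM in exAM.

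**Figure D2:**
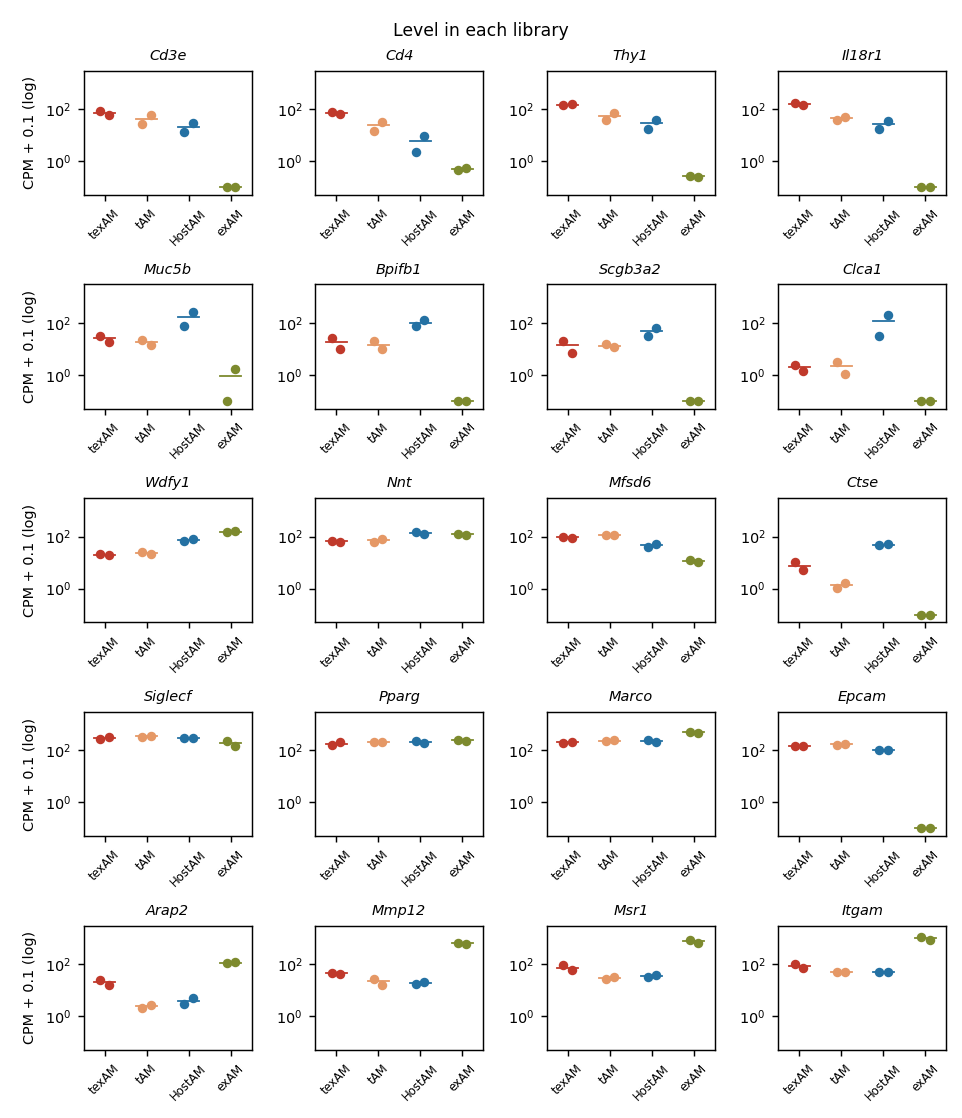
Level of 20 genes in each library, as CPM + 0.1 on a log axis, with 2 points and their mean as a line for each of the 4 groups. From top to bottom the rows hold lymphocyte genes, airway epithelial genes, strain-linked and other genes led by Wdfy1, identity genes, and genes high in culture. Siglecf is level throughout, while Arap2 is at 23.4 and 16 CPM in texAM and at 2.76 and 4.72 CPM in HostAM.

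The other macrophage programmes had few or no calls, where 0.33% of all tested genes were called. With so small a share, an absence of calls does not set lists of this size apart from other genes. None of the 40 lysosome genes was called by edgeR, with 5 at an unadjusted p under 0.05 and 1 called by DESeq2. An interval within 2-fold was found for 97.5% of them, again without matching by count level. Across the other lists of this paragraph that share ran from 31.8% for extracellular matrix and remodelling to 87% for cholesterol synthesis. It was 32.6% for interferon-stimulated genes and 52.2% for inflammatory mediators, against 53.1% of all tested genes. Without a call, lists with wide intervals are not shown to be alike in the groups. No member was called on the lists of class II and co-stimulation (16 tested, median log2 fold change 0.14), class I presentation (19, -0.01), interferon-stimulated genes (46, -0.03), cholesterol synthesis (23, 0.15), sterol efflux and LXR targets (20, -0.12) and lipid droplet, fatty acid oxidation and PPAR targets (34, -0.16). Nor was any called among the lists of glycolysis and hypoxia (30, 0.06), cell cycle (35, -0.11), self-renewal regulators (14, 0.04), NRF2 and antioxidant genes (30, -0.13), TGF-beta pathway and targets (20, 0.01), immediate early and heat shock genes (34, 0.06) or pattern recognition and phagocytosis receptors (39, 0.00). Over these 13 lists, 65 of 360 memberships had an unadjusted p under 0.05, against 13.2% of all tested genes. DESeq2's Wald test called 20 of the 360, against 385 of all 14537 tested genes. By each of these measures the share in the lists was larger than that of all tested genes. Inflammatory mediators (23 tested, median 0.26) had 1 member called lower, Ptgs1, and extracellular matrix and remodelling genes (22, 0.10) had 1 called higher, Mmp12. The NRF2 list had 17 members whose libraries were lower in texAM without overlap and 1 whose libraries were higher, where 21% of all tested genes were lower and 21.8% higher in this way, and all 30 missed the threshold.

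The list of 21 genes raised in culture, which had been taken from earlier results of these libraries and so is no independent evidence, had 1 member called. Mmp12, macrophage elastase, was at 45.3 and 42.2 CPM in texAM, 16.9 and 19.9 CPM in HostAM, 27.4 and 15.7 CPM in tAM and 666 and 568 CPM in exAM. Its log2 fold change over HostAM was 1.25 (SE 0.21, edgeR adjusted p = 0.0461), and the call was lost in 7 of 12 alternatives. Mmp12 in texAM was above the HostAM level and far under the culture level, while the tAM libraries spanned those of HostAM. The median of the list was 0. Of its 21 members, 4 were higher in texAM without overlap (19%, against 21.8% of all genes) and 2 were lower. An interval within 2-fold was found for 1 of the 21 (4.76%, against 53.1% of all tested genes). The list is therefore not shown to be alike in the groups. Its members summed to 284 and 221 CPM in texAM, 136 and 180 CPM in HostAM and 134 and 130 CPM in tAM. In exAM they summed to 6300 and 5060 CPM. The difference between these sums was not tested.

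Other culture-raised genes had no call. Msr1, a scavenger receptor, was at 87.3 and 57.7 CPM in texAM, 32.8 and 37.3 CPM in HostAM, 26.3 and 32.0 CPM in tAM and 811 and 665 CPM in exAM (log2 fold change 1.05, SE 0.19, edgeR adjusted p = 0.0578). Itgam, which encodes CD11b, was at 99.1 and 68.9 CPM in texAM, 48.9 CPM in both HostAM libraries and 1130 and 822 CPM in exAM (0.78, SE 0.18, edgeR adjusted p = 0.107). Ccnd1, a cyclin, went the other way, at 15.6 and 15.7 CPM in texAM and 20.1 and 35.6 CPM in HostAM. Msr1, Itgam and Ccnd1 were singled out after their values were seen.

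Arap2, which encodes a GTPase-activating protein for Arf proteins, was the single gene called between texAM and tAM (0.00688% of the genes tested). It stood at 23.4 and 16 CPM in texAM, 1.86 and 2.63 CPM in tAM, 2.76 and 4.72 CPM in HostAM and 105 and 118 CPM in exAM. Both transplanted cultured libraries were above every uncultured lung library and below both cultures. The log2 fold change of Arap2 was 2.40 over HostAM (SE 0.31, edgeR adjusted p = 0.0179) and 3.13 over tAM (edgeR adjusted p = 0.0373). Arap2 over HostAM was not called in 4 of 12 alternatives, among them the fits without the exAM libraries.

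Lamc1, a laminin chain of basement membrane, was also higher in both texAM libraries than in the other lung libraries, and highest in exAM. Unlike Arap2, Lamc1 was not called between texAM and tAM (log2 fold change 0.88, edgeR adjusted p = 0.118). It lies on chromosome 1, 15.16 Mb from Ptprc and so outside the Ptprc window. Whether strain set its level was not tested. It was at 105 and 106 CPM in texAM, 40.3 and 43.1 CPM in HostAM, 56.2 and 58.8 CPM in tAM and 180 and 212 CPM in exAM (log2 fold change over HostAM 1.34, SE 0.13, edgeR adjusted p = 0.0057). Among the 25 other genes, exAM exceeded both texAM and HostAM for 5 of the 19 higher genes and for 5 of the 6 lower genes. Lamc1 was singled out after its values were seen.

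The promoters of Arap2, Mmp12 and Lat are shown because they stand for the culture-associated and lymphocyte-associated genes called. Each run is the 250 bases before the RefSeq start nearest the annotated gene start (GRCm38.p6), with matches to an AP-1 motif (TGACTCA) and to an ETS core (AGGAAG), on either strand, in capitals. The Arap2 window is chr5:62766178-62766427 on the minus strand, the Mmp12 window chr9:7344147-7344396 on the plus strand, and the Lat window chr7:126369569-126369818 on the minus strand.
Arap2: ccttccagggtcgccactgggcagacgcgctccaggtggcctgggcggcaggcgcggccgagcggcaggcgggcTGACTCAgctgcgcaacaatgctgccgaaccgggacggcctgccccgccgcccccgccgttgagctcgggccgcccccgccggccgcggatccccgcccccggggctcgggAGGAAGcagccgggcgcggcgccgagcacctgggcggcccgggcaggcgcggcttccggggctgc
Mmp12: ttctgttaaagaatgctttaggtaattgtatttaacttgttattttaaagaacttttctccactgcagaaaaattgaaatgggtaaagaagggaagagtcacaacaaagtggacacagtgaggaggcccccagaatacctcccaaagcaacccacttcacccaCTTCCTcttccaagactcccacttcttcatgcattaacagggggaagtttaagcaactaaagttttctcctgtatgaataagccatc
Lat: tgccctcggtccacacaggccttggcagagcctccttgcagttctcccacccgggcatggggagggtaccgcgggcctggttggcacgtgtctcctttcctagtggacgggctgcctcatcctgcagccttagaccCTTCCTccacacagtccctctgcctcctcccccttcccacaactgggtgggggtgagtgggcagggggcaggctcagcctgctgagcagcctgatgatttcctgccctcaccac

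The Arap2 window held an AP-1 match 176 bases and an ETS core 65 bases before the start. The Mmp12 window held an ETS core at 87 bases and the Lat window one at 114 bases. RefSeq windows were found for 32 of the 48 called genes. An AP-1 match was present in 2 of these 32, Arap2 and Ccr4, and in 4.5% of all 32851 windows, and an ETS core in 9 of the 32 and in 29.5% of all windows. The motif counts describe the letters only.

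The genes lower in texAM and outside the strain and epithelial sets were all well expressed in the cultures. Mtus1, a microtubule-associated protein, was at 14.4 and 15.9 CPM in texAM, 45.7 and 40.9 CPM in HostAM, 20.9 and 19.6 CPM in tAM and 153 and 141 CPM in exAM (log2 fold change -1.52, SE 0.17, edgeR adjusted p = 0.00917). Ptgr1, an enzyme that inactivates leukotriene B and prostaglandins, was at 33.4 and 21.7 CPM against 64.6 and 64.0 in HostAM. Ptgs1, cyclooxygenase of the constitutive type and the only called inflammatory mediator, was at 19.5 and 14.7 CPM against 37.7 and 31.4. The cultures held 111 and 114 CPM of Ptgr1 and 271 and 267 CPM of Ptgs1.

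In each case the tAM libraries also lay below HostAM. Ptgr1 was at 32.8 and 35.1 CPM and Ptgs1 at 23.1 and 23.6 CPM in tAM. Tcp11l1 was at 23.8 and 17.8 CPM in texAM, 46.2 and 43.4 CPM in HostAM and 20.8 and 16.8 CPM in tAM. Ece1, the endothelin-converting enzyme, was at 42.1 and 36.7 CPM in texAM, 72.7 and 76.1 CPM in HostAM and 58.3 and 58.7 CPM in tAM. Wdfy3, an autophagy adaptor, had the smallest called change, at 689 and 708 CPM against 948 and 930 (log2 fold change -0.43, SE 0.072, edgeR adjusted p = 0.0433). None of these was called between tAM and HostAM, and the comparisons share the HostAM libraries. The calls of Ptgr1, Ptgs1, Tcp11l1, Ece1 and Wdfy3 were each lost in 7 of 12 alternatives and that of Mtus1 in 3.

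A subset of lymphocyte markers was higher in texAM than in HostAM. Of 69 listed markers, 67 were in the table and 52 were tested. Of these, 8 were called higher (among them Cd4, Cd6, Gata3, Bcl11b, Il18r1, Thy1 and Lat) and none lower, against 0.248% called higher among all genes. The median log2 fold change of the 52 was 1.82, where that of all genes was 0, and 34 of them were higher without overlap (65.4%) against 21.8% of all genes. The median for tAM over HostAM was 0.5.

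Il18r1, a chain of the interleukin-18 receptor, was at 175 and 138 CPM in texAM and 17.1 and 35.3 CPM in HostAM, with tAM at 38.1 and 51.3 CPM (log2 fold change 2.58, SE 0.32, edgeR adjusted p = 0.0179). Thy1, a surface protein of T cells and innate lymphoid cells, was at 148 and 151 CPM in texAM, 17.6 and 39.4 CPM in HostAM and 39.1 and 68.7 CPM in tAM. Cd4, the helper T cell co-receptor, was at 80.2 and 62.6 CPM in texAM, 2.09 and 9.09 CPM in HostAM and 14.7 and 32.7 CPM in tAM. All 3 genes were highest in texAM and higher in HostAM 2 than in HostAM 1. Lat, the adaptor of the T cell receptor, was at 41.5 and 36.0 CPM against 9.26 and 8.52.

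The receptor genes that define T cells were counted in every lung group. Cd3e was at 82.1 and 60.8 CPM in texAM, 12.9 and 28.2 CPM in HostAM, 26.7 and 56.9 CPM in tAM and 0 in both exAM libraries. It did not pass the test (log2 fold change 1.80, SE 0.43, edgeR adjusted p = 0.122), although its libraries did not overlap. Cd3d was at 12.3 and 8.21 CPM in texAM and 0 and 1.84 CPM in HostAM, Cd3g at 21.7 and 24.6 CPM against 1.32 and 4.14, and Trac at 32.9 and 17.9 CPM against 2.98 and 11.1. All 4 defining markers were higher in both texAM libraries than in both HostAM libraries.

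Other members of the list did not overlap between the groups and missed the threshold. Icos, a co-stimulatory receptor, was at 40.1 and 24.6 CPM against 0.772 and 4.60 (edgeR adjusted p = 0.0731). Blk, a kinase of B cells and some gamma-delta T cells, was at 9.40 and 7.53 CPM against 0 and 0.23 (edgeR adjusted p = 0.0507).

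Of the 52 members, 3 were lower in texAM without overlap, and for others the HostAM libraries differed widely. Cd8a was at 1.46 and 2.17 CPM in texAM and 1.54 and 17.2 CPM in HostAM, Nkg7, a granule membrane protein, at 2.19 and 1.83 CPM against 0.22 and 12.9, and Ccl5 at 12.2 and 10.5 CPM against 4.96 and 37.2. Each was high in HostAM 2 and low in HostAM 1, and none of the 3 was called. Klrk1, a receptor of cytotoxic lymphocytes, lay the other way, at 12.6 and 6.84 CPM in texAM against 1.43 and 1.96 (edgeR adjusted p = 0.154). The Cd8a, Nkg7, Ccl5 and Klrk1 values are examples and were not tested as a group. The B cell markers Cd79a and Ms4a1 and the NK cell markers Ncr1 and Klrb1c had too few counts to be tested.

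The lymphocyte genes outside the list were picked from among the called genes, so each was called by selection. Of all lymphocyte genes called, Cd163l1 and then Trgc1, both outside the list, had the lowest edgeR adjusted p. Cd163l1, a scavenger receptor known from gamma-delta T cells, was at 48.2 and 52.9 CPM in texAM, 0.441 and 0.691 CPM in HostAM, 12.3 and 22.6 CPM in tAM and 0 in exAM (log2 fold change 6.45, SE 0.48, edgeR adjusted p = 0.0031). It was called in all 12 alternatives and also in tAM over HostAM (4.91, edgeR adjusted p = 0.0109). Trgc1, a constant region of the T cell receptor gamma chain, was at 20.3 and 14.0 CPM against 0.441 and 0.345. Its copies Trgc2 and Trgc4 are similar in sequence and reads could be split between them: Trgc2 was at 8.14 and 5.70 CPM against 0.22 and 1.38 and was not called.

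Ccr4, a chemokine receptor of T cells, was at 73.3 and 53.3 CPM in texAM, 4.74 and 1.27 CPM in HostAM and 11.6 and 24.8 CPM in tAM. Ets1, a lymphocyte transcription factor, was at 88.6 and 71.3 CPM against 5.29 and 13.6. Satb1, a chromatin organiser of thymocytes, was at 67.1 and 51.6 CPM against 8.71 and 11.2. Lta, which encodes lymphotoxin alpha, was at 25.1 and 21.9 CPM against 2.65 and 2.99, and Tnfsf8, the CD30 ligand, at 28.1 and 22.9 CPM against 0.992 and 2.19. Itgb7, an integrin chain of mucosal lymphocytes that was singled out after its values were seen, was at 40.2 and 39.6 CPM against 10.9 and 11.7. For all 16 lymphocyte genes called, as for 43 of all 48 called genes, the tAM mean lay between the texAM and HostAM means. Called genes were selected for a difference between texAM and HostAM, which favours such a position of tAM. The share over all tested genes was not computed.

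The summed level of the list differed between members by their level in exAM. The 45 tested members under 1 CPM in an exAM library summed to 1160 and 976 CPM in texAM, 154 and 378 CPM in HostAM, 268 and 513 CPM in tAM and 4.98 and 6.80 CPM in exAM. The texAM mean was 4.02 times the HostAM mean, and HostAM 2 was 2.45 times HostAM 1. The 7 members with at least 1 CPM in both exAM libraries were Cd2, Cd22, Cd27, Gata3, Il7r, Lat and Lck. They summed to 591 and 573 CPM in texAM and 548 and 502 CPM in HostAM, a texAM mean 1.11 times the HostAM mean. Gata3 and Lat, both called higher, were among them. In such bulk libraries, more cells of a type and more RNA per cell cannot be told apart, and the part of lymphocyte RNA in the other results was not tested. Leaving out HostAM 2 raised the calls on this list to 13, leaving out HostAM 1 lowered them to 2, and none remained without either texAM library.

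**Figure D3:**
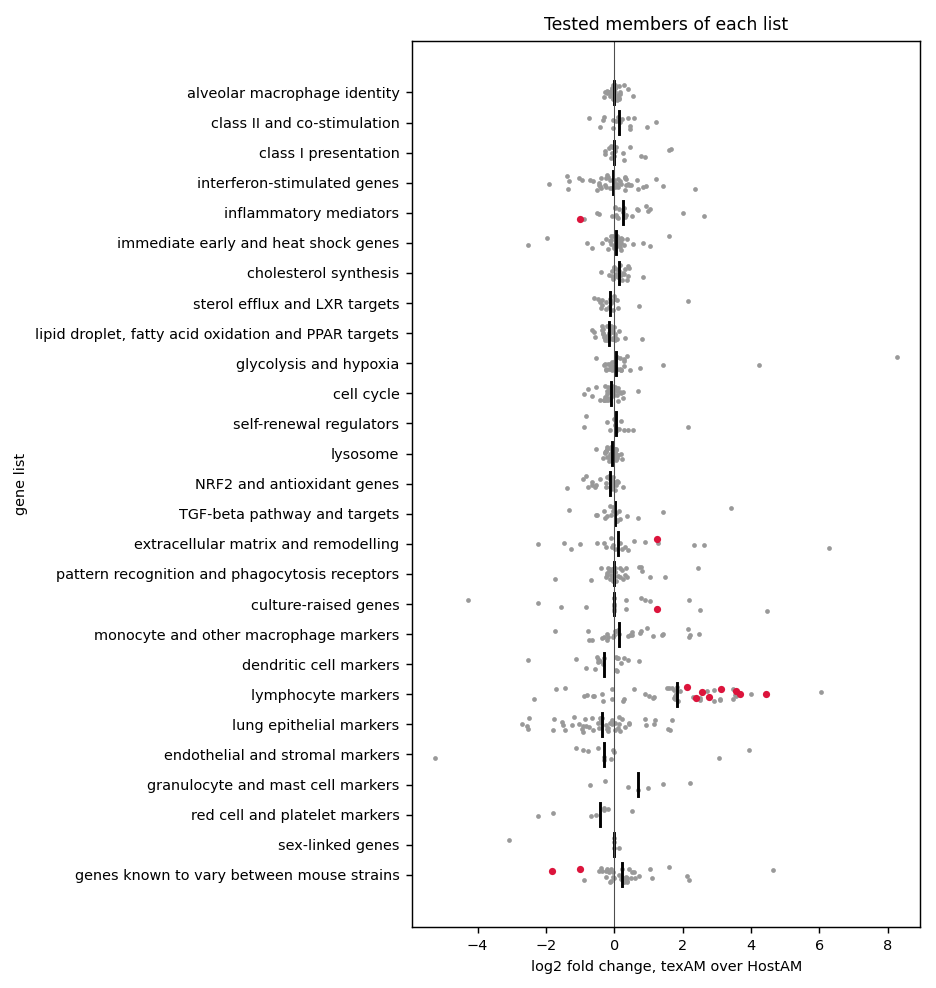
Log2 fold change of texAM over HostAM for every tested member of 27 gene lists, 1 point per gene spread vertically for visibility, with red points for genes at an adjusted p under 0.05 and a black bar at each list's median. The bar of the lymphocyte list stands at 1.82 and that of the lung epithelial list at -0.37, while the identity list is narrow around 0.

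None of the 52 tested members of the lung epithelial list (57 listed) was called by edgeR, against 0.33% of all tested genes. Without overlap, 18 were lower (against 21% of all genes) and 7 higher (13.5%, against 21.8%). A fold change above 0 was seen for 17, and the median log2 fold change was -0.37 (-0.69 for tAM over HostAM). Of the 52, 11 had an unadjusted p under 0.05, against 13.2% of all tested genes. DESeq2's Wald test called 4 of them, against 385 of all 14537 tested genes. By each of these measures the share in the list was larger than that of all tested genes. Muc5b, the main airway gel-forming mucin, was at 32.4 and 19 CPM in texAM, 74.8 and 260 CPM in HostAM and 21.2 and 13.8 CPM in tAM (log2 fold change -2.70, SE 0.56, edgeR adjusted p = 0.0839). Bpifb1, a secreted protein of airway epithelium, was at 26.5 and 9.47 CPM against 76.3 and 127 (-2.49, SE 0.48, edgeR adjusted p = 0.0795).

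The called genes termed epithelial, Clca1 and Dnah11, were not on the list. Clca1, a secreted protein of goblet cells, was at 2.40 and 1.25 CPM in texAM, 30.5 and 201 CPM in HostAM, 3.13 and 1.00 CPM in tAM and 0 in exAM (log2 fold change -5.96, SE 0.91, edgeR adjusted p = 0.0399). Its HostAM libraries differed more from each other than most genes did, and the log2 fold change was between -6.75 and -4.06 over the alternatives, of which 4 of 12 lost the call. Dnah11, a dynein heavy chain of motile cilia, was at 77.6 and 85.4 CPM in texAM, 168 and 157 CPM in HostAM and 94.6 and 118 CPM in tAM. In exAM Dnah11 was at 0.172 and 0.154 CPM. The exons of Dnah11 overlap those of Cdca7l on the opposite strand, and the strand setting of the counting is not given.

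Markers of other epithelial cells were mixed. Scgb1a1, the secretoglobin of club cells, was at 80.5 and 85.2 CPM in texAM and 86.2 and 95.1 CPM in HostAM, and Cyp2f2, a club cell cytochrome, at 120 and 46.8 CPM against 156 and 162. Scgb3a2 was at 20.4 and 6.96 CPM against 31.4 and 63.0. Sftpc, the surfactant protein of alveolar type 2 cells, was at 21.9 and 8.10 CPM against 13.2 and 14.3, so its libraries overlapped. Foxj1, the ciliated cell factor, was at 14.9 and 5.48 CPM against 3.75 and 3.11. It was thus higher in texAM without overlap, opposite in direction to Dnah11. Whether the Dnah11 counts came from ciliated cells was not tested. The 42 list members under 1 CPM in an exAM library summed to 909 and 521 CPM in texAM, 1030 and 1480 CPM in HostAM and 658 and 512 CPM in tAM. Scgb1a1 was not among these 42, but among the 10 members with at least 1 CPM in both exAM libraries. Those 10 summed to 960 and 1070 CPM in texAM, 1070 and 1030 CPM in HostAM and 1050 and 979 CPM in exAM. Scgb1a1 was thus also counted in the cultures, and the cells its lung counts came from were not tested. The part of epithelial RNA in the other results was not tested.

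Markers of other cell types had no member called by edgeR, where 0.33% of all tested genes were called. Of 75 memberships in these 5 lists, 20 had an unadjusted p under 0.05, against 13.2% of all tested genes. DESeq2's Wald test called 8 of the 75, against 385 of all 14537 tested genes. By each of these measures the share in the lists was larger than that of all tested genes. The median log2 fold change was 0.13 for monocyte and other macrophage markers (29 tested), -0.3 for dendritic cells (19), -0.3 for endothelium and stroma (12), 0.7 for granulocytes and mast cells (7) and -0.42 for red cells and platelets (8). S100a9, a neutrophil and monocyte calprotectin subunit, was at 64.6 and 25.8 CPM in texAM and 5.29 and 14.2 CPM in HostAM. Alas2, the erythroid haem enzyme, was at 25.5 and 9.47 CPM against 81.0 and 41.2. Cdh5 of endothelium was at 0 in texAM and HostAM. S100a9, Alas2 and Cdh5 were chosen after their values were seen. Xist, the RNA of the inactive X chromosome, was at 1610 and 1760 CPM in texAM and 1330 and 1710 CPM in HostAM.

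Genes termed strain-linked were few, and several were as different in tAM as in texAM. Ptprc itself was at 718 and 753 CPM in texAM and 661 and 794 CPM in HostAM (chr1:138062861-138175708, GRCm38; log2 fold change 0.02, 95% interval -0.20 to 0.23), so the total level of the gene that carries the sorting alleles did not separate the groups. Of the 94 tested genes starting within 10 Mb of Ptprc, 3 were called (3.19%), against 0.312% of the genes elsewhere. In this window 31 genes (33%) had an unadjusted p under 0.05, against 13% elsewhere. The share was 33.3% within 5 Mb and 32.6% from 5 to 10 Mb, then 16% from 10 to 20 Mb and 14.9% from 20 to 40 Mb.

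**Figure D4:**
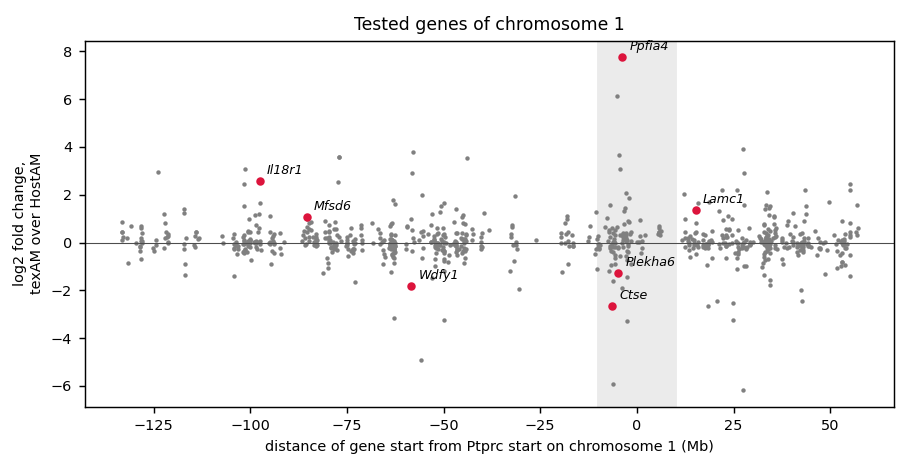
Log2 fold change of texAM over HostAM for the tested genes of chromosome 1 by the distance of each gene's start from that of Ptprc in Mb, with the 10 Mb window shaded and the 7 called genes in red and named. Ppfia4, at 7.75, and Plekha6 and Ctse, below 0, lie in the window.

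Ppfia4, a liprin of cell adhesion sites 3.77 Mb from Ptprc, was at 19.1 and 11.6 CPM in texAM, 16 and 14.3 CPM in tAM, 0.11 and 0 CPM in HostAM and 0.343 and 0 CPM in exAM. The HostAM libraries held 1 count in all against 285 in texAM, a ratio of 276 with a 95% counting interval from 49.1 to 10900. Its fitted log2 fold change was 7.75 over HostAM in texAM (edgeR adjusted p = 0.00917) and 7.73 in tAM (edgeR adjusted p = 0.0142). The transplanted groups did not differ from each other by more than their spread, and the exAM libraries, from the same donor strain, were at the HostAM level.

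Ctse, the endosomal protease cathepsin E, was at 10.1 and 4.91 CPM in texAM, 46.6 and 49.5 CPM in HostAM, 0.929 and 1.5 CPM in tAM and 0 in exAM. Its log2 fold change was -2.67 (SE 0.40, edgeR adjusted p = 0.0365) in texAM and -5.29 (edgeR adjusted p = 0.0102) in tAM, and the difference between them missed the threshold (2.62, edgeR adjusted p = 0.274). Plekha6, a pleckstrin homology domain protein, was at 31.2 and 24.9 CPM in texAM, 68.2 and 66.9 CPM in HostAM, 48.9 and 32.0 CPM in tAM and 235 and 230 CPM in exAM. Both genes were lower in every transplanted library than in HostAM, and both calls were lost in 5 of 12 alternatives.

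Genes of the window without a call included pairs of the same kind. Ppp1r12b, a myosin phosphatase subunit, was at 277 and 303 CPM in texAM, 310 and 316 CPM in tAM and 177 and 166 CPM in HostAM (log2 fold change 0.76, edgeR adjusted p = 0.0721). Ikbke, an interferon pathway kinase, was at 21.1 and 22.5 CPM in texAM, 14.6 and 14.5 CPM in tAM and 46.2 and 38.2 CPM in HostAM (-0.95, edgeR adjusted p = 0.103). Ppp1r12b and Ikbke were chosen after their values were seen.

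Of 39 tested genes listed as known to vary between mouse strains, 2 were called, both lower in texAM, against 0.0825% called lower among all genes. The list as a whole did not lean lower, with a median log2 fold change of 0.22. Without overlap, 15 members were higher and 5 lower, against 21.8% and 21% of all genes. Wdfy1, an endosomal adaptor of Toll-like receptor signalling, was at 21.3 and 19.2 CPM in texAM, 24.3 and 20.8 CPM in tAM, 65.6 and 78.3 CPM in HostAM and 147 and 164 CPM in exAM. Its log2 fold change was -1.83 in texAM (SE 0.17, edgeR adjusted p = 0.00451) and -1.67 in tAM (edgeR adjusted p = 0.0102). Nnt, the mitochondrial transhydrogenase, for which a sub-line of C57BL/6 is known to carry a deletion, was at 69.6 and 64.0 CPM in texAM, 62.0 and 79.1 CPM in tAM, 149 and 120 CPM in HostAM and 127 and 112 CPM in exAM (log2 fold change -1.01, SE 0.17, edgeR adjusted p = 0.04). Both genes were lower in every transplanted library than in HostAM. The cultures, labelled as the same donor strain, were above HostAM for Wdfy1, and for Nnt 1 exAM library lay between the HostAM libraries and the other below both. The Nnt call was lost in 5 of 12 alternatives and the Wdfy1 call in 1. Exons of Nnt overlap a second annotated Nnt entry on the same strand.

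Mfsd6, a membrane transporter family member on chromosome 1 outside the window that was singled out after its values were seen, was higher in both transplanted groups, at 99.6 and 90.2 CPM in texAM and 119 and 115 CPM in tAM against 40.7 and 49.5 CPM in HostAM. Its log2 fold change was 1.07 in texAM (edgeR adjusted p = 0.0264) and 1.38 in tAM (edgeR adjusted p = 0.0156). The comparison of tAM with HostAM called 6 genes in all (0.0413%), 3 higher (0.0206%) and 3 lower (0.0206%): Ctse, Wdfy1, Cd163l1, Ppfia4, Mfsd6 and Slc22a4. The first 5 were also called in texAM, but the comparisons share the HostAM libraries. Slc22a4, a carnitine-family transporter, was at 0.464 and 0.125 CPM in tAM and 4.80 and 2.62 CPM in texAM, against 7.94 and 6.45 CPM in HostAM.

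Several of the largest changes belonged to genes on none of the lists. Ermn, a cytoskeletal protein known from oligodendrocytes, was at 14.7 and 18.5 CPM in texAM, 1.62 and 2.38 CPM in tAM and 0 in HostAM and exAM, which makes it at least 97.8-fold higher in texAM than in HostAM, taking 3 counts over the HostAM group as the limit. Its exons overlap those of Galnt5 on the opposite strand, which did not exceed 2.88 CPM in any library. Adam12, a metalloprotease, was at 12.2 and 9.81 CPM against 0.11 and 0.115, or 203 counts against 2, a ratio of 98.3 with a counting interval from 26.9 to 817. Hlf, a PAR bZIP transcription factor, was at 17.4 and 12.9 CPM against 0.441 and 0.

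Nxpe3 was at 20 and 9.13 CPM in texAM and 0.441 and 0.23 CPM in HostAM, and the neighbouring Cep97, picked with its values in view, at 26.4 and 25.7 CPM against 7.38 and 7.14. Nhsl2 was at 43.7 and 27.9 CPM against 4.74 and 3.57, Ppp1r16b at 35.6 and 30.9 CPM against 5.62 and 7.71, and Kbtbd11 at 53.8 and 35.1 CPM against 10.0 and 8.06. Ermn, Adam12, Hlf and Nxpe3 had 0 counts in exAM. Ppp1r16b and Kbtbd11 were under 1 CPM there, and Nhsl2 was at 9.09 and 10.0 CPM. For all 7, as for 43 of all 48 called genes, the tAM mean lay between the texAM and HostAM means. Olfr60, an olfactory receptor gene near Cd163l1, picked with its values in view, stood at 5.85 and 7.87 CPM in texAM and 0 in HostAM, at least 40.3-fold higher by the same limit.

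The last 6 higher genes, Ei24, Htr2c, Cish, Rora, Gabbr1 and Sumf1, changed by little and are given as chosen after their values were seen. Their log2 fold changes ran from 0.77 for Sumf1 to 1.13 for Ei24, and all were expressed in exAM. Htr2c, a serotonin receptor, was at 144 and 127 CPM in texAM, 151 and 102 CPM in tAM, 63.0 and 61.6 CPM in HostAM and 6.52 and 4.79 CPM in exAM. Gabbr1, a GABA receptor subunit, was at 78.8 and 83.0 CPM in texAM, 85.4 and 86.9 CPM in tAM and 44.5 and 44.4 CPM in HostAM. For both genes the tAM libraries were also above HostAM. Cish, an inhibitor of cytokine signalling induced by STAT5, was at 108 CPM in both texAM libraries, 71.2 and 83.9 CPM in tAM and 60.5 and 49.6 CPM in HostAM.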

How the data were processed

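Bulk RNA-seq of sorted or cultured mouse alveolar macrophages was deposited as 1 table of raw counts per gene for 8 libraries, 2 per group. The submitters' processing notes list Bowtie, HTSeq 0.6.1 and the genome mm10 (GRCm38), and the strand setting and the treatment of duplicate reads are not given in the sources used here. Per the labels' protocols, RNA was amplified from a small input before library construction.

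The deposited counts were fitted in edgeR 4.0.16 (R 4.3.3, limma 3.58.1) with filterByExpr (minimum count 10), TMM scaling and 1 coefficient per group over all 8 libraries (4 residual degrees of freedom, biological coefficient of variation 0.22), and contrasts were tested by the quasi-likelihood F test with Benjamini-Hochberg adjustment at 0.05. DESeq2 1.42.0 served as an alternative. CPM used the TMM effective library size. The script was tested on simulated data. Gene positions came from GENCODE M21, which held 87.4% of the IDs. Members and lists were chosen with earlier results of these data known. Named genes were the largest called changes on the macrophage side (at most 15 per direction, at least 10 CPM in the higher group, no overlap of libraries), called genes within 10 Mb of Ptprc, the largest calls of each list, and members of the identity, lymphocyte, epithelial, sex and strain lists. Counting intervals and limits cover counting error only. Nothing in the labels says whether the pools of a group came from separate experiments, so p-values measure only the spread between these pools, which may be technical.

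Exons of 17 of the 48 called genes overlap those of another annotated gene, a tested one for 5 (Dnah11, Ermn, Mtus1, Wdfy1 and Wdfy3). Without strand their reads cannot be told apart. For Nnt, Gata3, Lat and Satb1 an overlap is on the same strand, so the strand would not part those reads. The Nnt overlap is with a second annotated entry of the same name, over 3339 bases. Some genes of the lists are not reported here.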

Additional observations from a re-analysis of the deposited data

Results flagged for a closer look

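The fold change of Arap2 over HostAM differed between the cultured and the uncultured transplanted cells. The test of that difference is the comparison of texAM with tAM, in which Arap2 had a log2 fold change of 3.13 (edgeR adjusted p = 0.0373), with both texAM libraries above both tAM libraries. It was the only gene of 14537 called there, and 1139 genes had an unadjusted p under 0.05. The call was lost with the replicate block, under which 0 genes were called in this comparison.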

How the results depend on the processing

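No result reversed. With 2 libraries per group, the number of calls depended on the filter, the test and single libraries. The 48 genes called between texAM and HostAM became 694 without a filter, 106 with a minimum of 50 counts and 385 with DESeq2's Wald test, and the 35 on the macrophage side became 625, 84 and 344. All 48 remained called under each of these settings. The 3 calls within 10 Mb of Ptprc became 14, 5 and 8, the 8 lymphocyte calls 29, 13 and 21, and the 0 epithelial calls 9, 2 and 4. Leaving out 1 library at a time gave 1 to 90 calls in all, 1 to 70 on the macrophage side, 0 to 3 near Ptprc, 0 to 13 on the lymphocyte list and 0 to 1 on the epithelial list; the lone library of a group is then assumed to vary like the others. DESeq2 size factors gave 50 calls and library size without TMM 51. The share of higher calls was 75%, 86.2% with the replicate block and 89.2% in a fit of the 4 texAM and HostAM libraries, which called 37. A fit of the 6 lung libraries, added after the data were seen, called 59, of which 41 were shared. Setting aside the lymphocyte and epithelial genes outside the lists, also added later, left 25 of the 35.

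Replicate numbers are shared by label only: deviations from the group means correlated between -0.06 and 0.01 across groups. With the replicate block 29 genes were called (27 of them shared), 20 on the macrophage side, and 0 between texAM and tAM, so that Arap2 was not called there, where a fit of the 4 libraries called 2. Of the named genes, Cd163l1 was called in all 12 alternatives.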
